A study of Mus musculus with 4 samples.

Results

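The genes described here encode the machinery that cuts and rejoins antigen receptor gene segments in lymphocytes. They are 9 of the 19938 genes with a probe set of their own on the array, and were taken by name: Rag1, Rag2 and Dntt, which are used in lymphoid cells (3 lymphoid-specific genes), and Lig4, Xrcc4, Xrcc5, Xrcc6, Nhej1 and Prkdc, which serve end joining in general (6 general genes). Each of the 9 had 1 probe set with a single gene name, so every member is reported. Their RNA was measured in 3 groups of C57BL/6 mouse cells on 4 arrays. Tcf1 cells (2 arrays, biological replicates by their titles) grew from lymphoid-primed multipotent progenitors (LMPPs) given a Tcf1-VEX retrovirus and kept on OP9, a stromal line without added Notch ligand. Control cells (1 array) grew from LMPPs given the VEX vector alone and kept on OP9 expressing the Notch ligand DL4. Both cultures received IL7 at 1 ng/ml and Flt3 ligand at 5 ng/ml and were sorted on day 10 as living CD45.2+ cells without Mac1 or Gr1 and with Thy1 and CD25. The LMPP group (1 array) held pooled cells from bone marrow, wildtype by their title, lineage marker negative, Sca+, kit+ and Flt3 high. Its array was made after 48 hours in a medium with IL-3, IL-6, SCF, Flt3 ligand and Polybrene. Tcf1 and control cells thus differed in virus and in stroma together, and the effects of virus and stroma cannot be told apart. LMPPs differed from both also in time in culture, cytokines and sort gate. No array held control-vector cells on plain OP9 or Tcf1 cells on OP9-DL4.

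Antigen receptor genes are assembled from V, D and J segments. The RAG1 and RAG2 proteins form the recombinase that binds the recombination signals beside the segments and cuts the DNA there. The broken ends are then joined by non-homologous end joining, in which the Ku heterodimer (Xrcc6 encodes Ku70, Xrcc5 encodes Ku80) holds the ends, the kinase DNA-PKcs (Prkdc) is recruited to them, and DNA ligase IV (Lig4) seals them with its partners XRCC4 (Xrcc4) and XLF (Nhej1). Terminal deoxynucleotidyl transferase (Dntt) adds nucleotides without a template to the coding ends and so diversifies the joints. In the thymus, Rag1 and Rag2 are expressed strongly at the CD4-CD8- stage at which T cell receptor beta genes rearrange, while end joining operates in nearly all cells.

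Values are log2 signals, so a difference of 1 is 2-fold, and levels of different genes are not compared with each other. Over the 19938 genes the arrays had medians between 7.47 and 7.59. Tcf1 replicate 1 had an interquartile range of 2.91, against 3.13 to 3.22 on the other 3 arrays. Thy1 and Il2ra (CD25), genes of markers used to sort the cultured cells, were high in both cultures. Thy1 read 12.38 and 12.53 in Tcf1 cells, 12.98 in control cells and 8.13 in LMPPs, and Il2ra read 12.91 and 12.99 in Tcf1 cells, 13.64 in control cells and 6.88 in LMPPs. Kit, a marker of the LMPP gate, was lowest in LMPPs, at 11.17 and 11.27 in Tcf1 cells, 11.39 in control cells and 9.68 in LMPPs. Flt3, also of that gate, read 10.97 and 11.03 in Tcf1 cells, 6.75 in control cells and 11.91 in LMPPs. Tests are from limma, with p-values adjusted over all 19938 genes by the Benjamini-Hochberg method and a threshold of 0.05. Only the Tcf1 pair gave a measure of spread, and the test assumes that the control and LMPP arrays vary as that pair does. Permuting the labels of 2 arrays against 1 could give no p below 0.333.

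The upstream sequences of Rag1, Rag2 and Dntt are shown because these 3 genes had the largest differences among the members and all read highest on the control array. Each is the 250 bases before the RefSeq transcript start (mouse build GRCm38.p6), written 5′ to 3′ on the gene's own strand. Capitals mark the E-box CANNTG, the binding letters of E proteins, and TGTGG, the core of the Runx motif, on either strand. Rag1 lies at chr2:101649533-101649782 on the minus strand, Rag2 at chr2:101624462-101624711 on the plus strand and Dntt at chr19:41029025-41029274 on the plus strand.
Rag1: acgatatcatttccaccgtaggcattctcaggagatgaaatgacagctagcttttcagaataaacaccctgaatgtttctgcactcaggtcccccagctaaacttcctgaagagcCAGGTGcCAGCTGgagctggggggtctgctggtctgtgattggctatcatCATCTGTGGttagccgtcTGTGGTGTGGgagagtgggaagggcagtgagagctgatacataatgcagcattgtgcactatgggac
Rag2: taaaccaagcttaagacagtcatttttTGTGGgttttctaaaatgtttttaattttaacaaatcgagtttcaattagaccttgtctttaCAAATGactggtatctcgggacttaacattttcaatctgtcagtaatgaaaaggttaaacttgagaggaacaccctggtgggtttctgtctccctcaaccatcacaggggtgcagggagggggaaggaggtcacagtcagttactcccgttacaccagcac
Dntt: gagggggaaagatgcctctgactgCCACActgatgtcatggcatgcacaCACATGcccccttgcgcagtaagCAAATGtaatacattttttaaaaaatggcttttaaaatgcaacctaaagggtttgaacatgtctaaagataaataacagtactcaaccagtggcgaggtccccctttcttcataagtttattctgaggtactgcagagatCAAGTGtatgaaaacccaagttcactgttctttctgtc
The Rag1 window holds 3 E-boxes, which start 135, 128 and 85 bases before the transcript start, and 3 Runx cores, of which the one 81 bases before the start overlaps the nearest E-box by 2 bases. Rag2 has 1 E-box (161 bases before the start) and 1 Runx core. Dntt has 3 E-boxes, at 201, 178 and 38 bases before the start, and 1 Runx core on the opposite strand. Of 32536 distinct windows of this length in the RefSeq table, 66.2% hold an E-box and 49.2% a Runx core on either strand. The letters GATA, on either strand, occur 4 times for Rag1, once for Rag2 and once for Dntt, and in 53.4% of all windows. The forkhead core AAACA occurs 2 times for Rag1, once for Rag2 and 0 times for Dntt, and in 46.4% of all windows. The core CTTTG of the Tcf1 and Lef1 motif is found on neither strand in any of these 3 windows, and in 48.7% of all windows. These matches describe the letters and were not tested for binding.

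The comparison of Tcf1 with control cells asks how Thy1+CD25+ cells made with Tcf1 on plain OP9 differ from those made on OP9-DL4. All 3 lymphoid-specific genes were lower in Tcf1 cells, and among the 6 general genes Lig4 and Xrcc6 were lower. This made 5 of 9 members lower and 0 higher, against 2.49% of all genes lower and 1.90% higher by the same test. Over all 35399 probe sets, no member and no other probe set passed (limma, 3702 with an unadjusted p under 0.05).

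Rag1 read 7.10 and 7.28 in the Tcf1 arrays and 10.42 in the control array. The difference was -3.22 (SE 0.17, adjusted p = 3.2e-04, limma), a signal 9.35-fold lower in Tcf1 cells, and rank 8 of 19938 among decreases. Rag2, the other recombinase subunit, read 6.37 and 6.79 in Tcf1 cells and 8.83 in control cells. Its difference was -2.26 (SE 0.21, adjusted p = 0.0024, limma), a signal 4.78-fold lower in Tcf1 cells. No detection calls were used here, so it is not known whether the Rag genes were above background in Tcf1 cells. If they were not, these folds understate the difference.

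Dntt read 9.77 and 10.06 in Tcf1 cells and 11.81 in control cells. The difference was -1.90 (SE 0.19, adjusted p = 0.0029, limma), a signal 3.72-fold lower in Tcf1 cells. For each of these 3 genes the 2 Tcf1 arrays lay closer to each other (0.18, 0.42 and 0.29 apart for Rag1, Rag2 and Dntt) than to the control array. The test already uses the spread of that pair, so this adds no separate support.

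**Figure D1:**
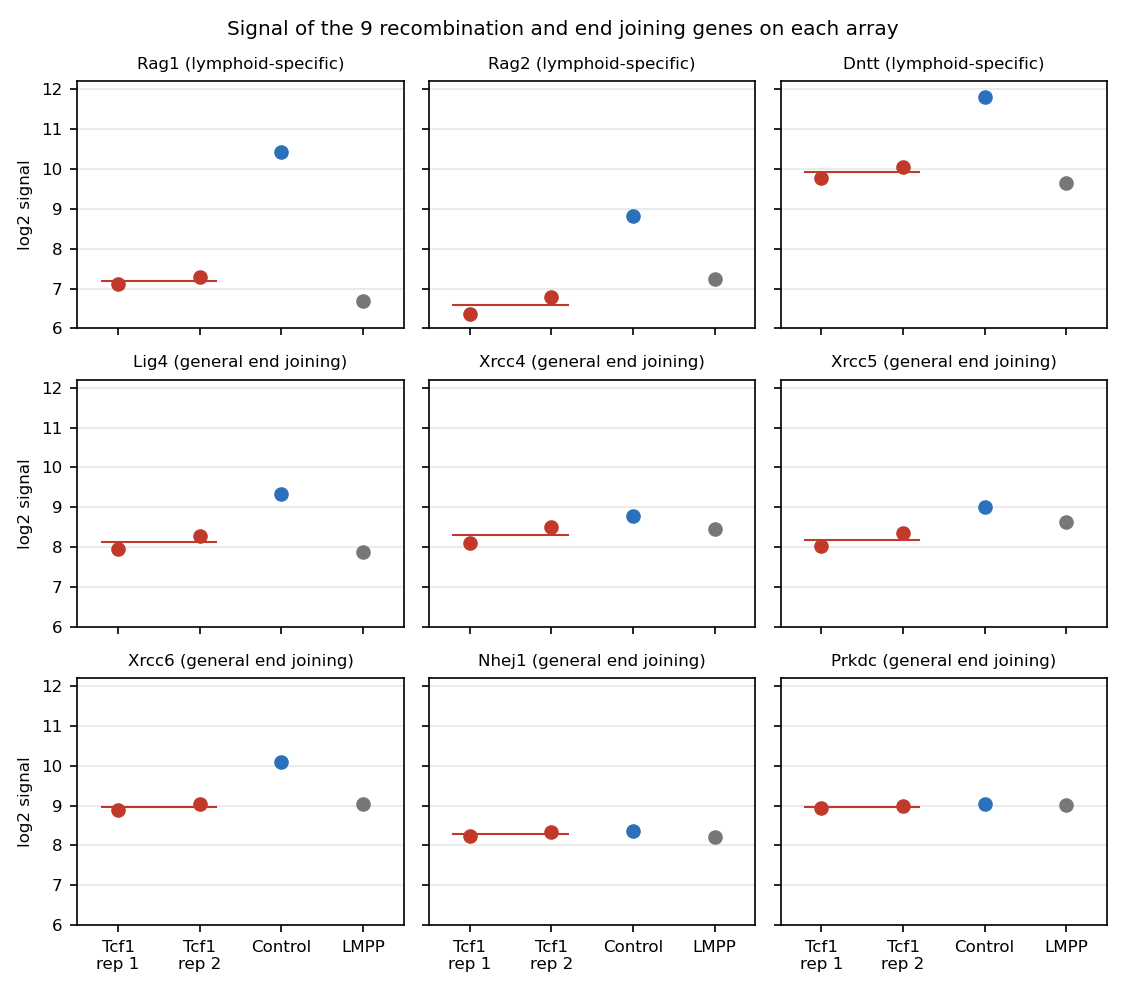
Log2 signal of each member (vertical axis) on the 2 Tcf1 arrays, the control array and the LMPP array (horizontal axis); points are single arrays and the red line is the Tcf1 mean. Rag1, Rag2, Dntt, Lig4 and Xrcc6 stand out on the control array (10.42, 8.83, 11.81, 9.33 and 10.10), while Prkdc lies between 8.94 and 9.04 on all 4 arrays.

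Among the general genes, the ligase gene Lig4 read 7.95 and 8.29 in Tcf1 cells and 9.33 in control cells, a difference of -1.21 (SE 0.19, adjusted p = 0.0187, limma). Xrcc6, for Ku70, read 8.88 and 9.03 in Tcf1 cells and 10.10 in control cells, a difference of -1.15 (SE 0.17, adjusted p = 0.0129, limma). In both genes the Tcf1 arrays lay more than 1 log2 unit below the control array. Xrcc5, for the Ku80 partner of Ku70, read 8.02 and 8.34 in Tcf1 cells and 9.002 in control cells. Its difference of -0.82 (SE 0.19) did not pass (adjusted p = 0.0749, limma), but passed after median centring of the arrays (adjusted p = 0.0108) and when genes below the 25th percentile were left out (adjusted p = 0.0157).

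Xrcc4, the ligase cofactor, read 8.11 and 8.50 in Tcf1 cells and 8.78 in control cells, and its difference of -0.47 did not pass (95% interval -0.96 to 0.02, adjusted p = 0.38, limma). Nhej1 read 8.23 and 8.33 in Tcf1 cells and 8.37 in control cells, with a difference of -0.09 and a 95% interval of -0.48 to 0.30 (adjusted p = 0.935, limma). Prkdc read 8.94 and 8.99 in Tcf1 cells and 9.04 in control cells, with a difference of -0.07 and a 95% interval of -0.46 to 0.31 (adjusted p = 0.95, limma). A 2-fold difference lies outside the intervals of all of these 3 genes, within the assumption on spread above. As deposited, both Tcf1 arrays lay below the control array for 9 of 9 members, which was so for 34.2% of all genes. After renewed quantile normalization this held for 7 of 9, since Nhej1 and Prkdc then had a Tcf1 array above the control array.

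The lymphoid-specific genes thus ran from -3.22 to -1.90 and the general genes from -1.21 to -0.07, ranges that do not overlap. The medians were -2.26 and -0.65, beside 0.02 over all genes. With Tcf1 replicate 2 alone the medians were -2.05 and -0.47, and with replicate 1 alone -2.47 and -0.83. Within the general group, Lig4 passed and its cofactors Xrcc4 and Nhej1 did not, and Xrcc6 passed and its partner Xrcc5 did not. Differences between these genes were not tested.

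**Figure D2:**
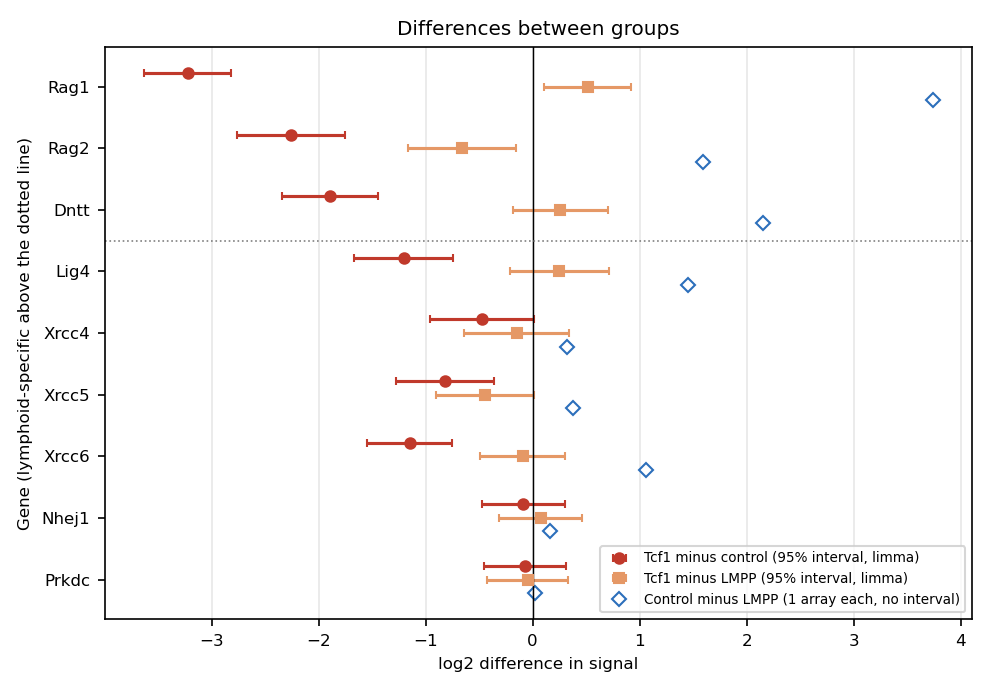
Log2 differences (horizontal axis) of the 9 members (rows; lymphoid-specific genes above the dotted line), with 95% intervals from limma for Tcf1 minus control (red circles) and Tcf1 minus LMPP (orange squares); open diamonds give control minus LMPP, 1 array each, with no interval. Against control cells, the intervals of Rag1, Rag2, Dntt, Lig4, Xrcc5 and Xrcc6 lie below 0, and against LMPPs no member passed after adjustment.

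Tcf1 cells were then compared with LMPPs to ask what had changed from the input progenitors. No member passed the test (0 of 9, limma). Rag1 and Rag2 had an unadjusted p under 0.05, as had 2900 of all 19938 genes (limma). After adjustment, 1.75% of all genes were higher and 1.31% lower. That balance depended on scaling: 57.2% of the called genes were higher as deposited and 41.7% after median centring. The median was 0.26 for the lymphoid-specific genes, 0.11 with Tcf1 replicate 1 alone and 0.41 with replicate 2 alone. It was -0.07 for the general genes, -0.12 with replicate 1 alone and 0.01 with replicate 2 alone, and turned to 0.06 after renewed quantile normalization.

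The RAG partners read on opposite sides of the LMPP array, and neither difference passed as deposited. Whether Rag1 or Rag2 was above background on these arrays is not known. Rag1 read 7.10 and 7.28 in Tcf1 cells and 6.68 in the LMPP array. Both Tcf1 arrays were above the LMPP array, and the difference of 0.51 (95% interval 0.11 to 0.92) did not pass (adjusted p = 0.215, limma). Rag2 read 6.37 and 6.79 in Tcf1 cells, below the 7.24 of the LMPP array, with a difference of -0.66 (95% interval -1.17 to -0.15, adjusted p = 0.202, limma). After median centring Rag2 differed by -0.70 and passed (adjusted p = 0.0465, limma), while Rag1 passed under none of the alternatives tried. Dntt, at 9.77 and 10.06 in Tcf1 cells and 9.66 in LMPPs, differed by 0.26 (95% interval -0.19 to 0.71, adjusted p = 0.677, limma).

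The general genes had small differences from LMPPs. Xrcc5, at 8.02 and 8.34 in Tcf1 cells and 8.63 in LMPPs, had the largest, -0.45 (95% interval -0.91 to 0.01, adjusted p = 0.36, limma). Lig4 differed by 0.25 (LMPP array 7.87), Xrcc4 by -0.15 (8.45), Xrcc6 by -0.09 (9.05), Nhej1 by 0.07 (8.21) and Prkdc by -0.05 (9.01). Xrcc6 and Prkdc turned to 0.04 and 0.08 after renewed quantile normalization. The 2 Tcf1 arrays lay on opposite sides of the LMPP array for Xrcc4, and on the same side for the other 8 members (4 below and 4 above). Over all genes, both lay below it for 36.8% and above it for 35.8%, so a shared side is common.

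The difference between control cells and LMPPs rests on a single array of each, so it was not tested and describes only these arrays. It shares the control and LMPP arrays with the comparisons above. Of the 9 members 5 were at least 2-fold higher in the control array and 0 lower, against 3.17% and 2.36% of all genes. These were the members that passed between Tcf1 and control cells. Rag1 was 13.4-fold higher (10.42 in control cells, 6.68 in LMPPs), Dntt 4.45-fold (11.81 and 9.66), Rag2 3.02-fold (8.83 and 7.24), Lig4 2.74-fold (9.33 and 7.87) and Xrcc6 2.08-fold (10.10 and 9.05). The other general genes differed by 0.37 (Xrcc5), 0.32 (Xrcc4), 0.16 (Nhej1) and 0.03 (Prkdc) on the log2 scale. All 9 members were highest in control cells as deposited. Both Tcf1 arrays came next and the LMPP array last for Rag1, Dntt, Lig4 and Nhej1, and the LMPP array came next for Rag2, Xrcc5, Xrcc6 and Prkdc. The steps between Tcf1 cells and LMPPs in these orders did not pass the test.

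The wider repair pathway was described with 4 lists: partners in end processing and joining, break sensing with the 53BP1 pathway, alternative end joining with single-strand repair, and homologous recombination. Of their 38 genes with a probe set of their own, 1 was lower in Tcf1 than in control cells and 0 were higher, with a median of -0.10, beside 2.49% of all genes lower, a share near that of the list. The gene that passed was H2ax, the histone variant phosphorylated beside DNA breaks, at 10.65 and 10.82 in Tcf1 cells and 11.55 in control cells, a difference of -0.82 (SE 0.17, adjusted p = 0.0477, limma). Its call lay close to the threshold. For 55.3% of the 38 genes both Tcf1 arrays lay below the control array, and for 18.4% above it. Over all genes these shares were 34.2% and 38.6%. Atm, the kinase that senses breaks, differed by -0.35 (adjusted p = 0.411, limma), and Polm, a polymerase of end joining, by -0.50 (adjusted p = 0.44, limma). Against LMPPs, 0 of the 38 passed (limma) and the median was -0.19. An unadjusted p under 0.05 was found for 8 of the 38, beside 2900 of all 19938 genes (limma). Both Tcf1 arrays lay below the LMPP array for 73.7% of the 38 and above it for 10.5%. Over all genes these shares were 36.8% and 35.8%. Palb2 and Polq, genes of homologous recombination and of alternative end joining, passed there after median centring (-0.76 and -0.66), and Palb2 also with the filter at the 25th percentile. Between control cells and LMPPs, 0 of 38 were at least 2-fold apart. Dclre1c, which encodes the hairpin-opening nuclease Artemis, is among the 7 listed repair genes not analysed here. Of 7 genes for RAG cofactors and turnover, 0 passed in either comparison (limma), and Kpna2 passed against LMPPs (-0.35) with a mean-variance trend. In that list Hmgb1 and Hmgb2, DNA-bending proteins that assist the RAG recombinase, differed from control cells by -0.39 and -0.43. Neither passed (adjusted p = 0.353 and 0.331, limma). Both had an unadjusted p under 0.05, as had 2809 of all 19938 genes (limma).

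A list of 19 genes held factors tied to Rag and Dntt transcription in lymphocytes or to their silencing. Of these, 4 were lower and 1 was higher in Tcf1 than in control cells, against 2.49% and 1.90% of all genes. Lower were Lef1 (-1.91), Ets1 (-1.41) and Gata3 (-1.30), transcription factors of the T lineage, and Id3 (-1.16), an inhibitor of E proteins. Higher was Spi1 (2.01), which encodes the Ets family factor PU.1, a regulator of myeloid and early progenitor cells, at 11.48 and 11.61 in Tcf1 cells and 9.54 in control cells. The list median was -0.46. The E protein genes Tcf3 (-0.35) and Tcf12 (-0.58) and the forkhead gene Foxo1 (-0.64), whose product activates Rag genes in B cell precursors, read lower in both Tcf1 arrays than in the control array and did not pass. The count of 5 called became 8 after median centring and with a mean-variance trend in the fit. Against LMPPs, 4 genes rose and 1 fell, beside 1.75% and 1.31% of all genes. Gata3 (2.54), Bcl11b (2.08) and Ets1 (1.95) had the largest differences of those that rose, and Gfi1b (-1.35) fell. Gata3, which passed, read 9.95 and 10.29 in Tcf1 cells and 7.58 in LMPPs, beside the values of Rag1 above, which did not pass.

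Rag1 and Rag2 are adjacent genes, so the genes beside them were also read. Of the 5 neighbours, 0 passed in either comparison (limma). Traf6, a signalling ligase gene beside Rag1, differed between Tcf1 and control cells by -0.18. Iftap, which overlaps Rag2 in the RefSeq annotation, read 5.49 and 5.63 in Tcf1 cells and 5.41 in control cells. Prr5l read 6.56 and 7.48 in Tcf1 cells and 5.60 in control cells, a difference of 1.42 that did not pass (adjusted p = 0.0831, limma). It passed against control cells after median centring, with the filter at the 25th percentile and with a mean-variance trend, and against LMPPs (1.01) with the filter. None of these neighbours was at least 2-fold higher in control cells than in LMPPs.

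**Figure D3:**
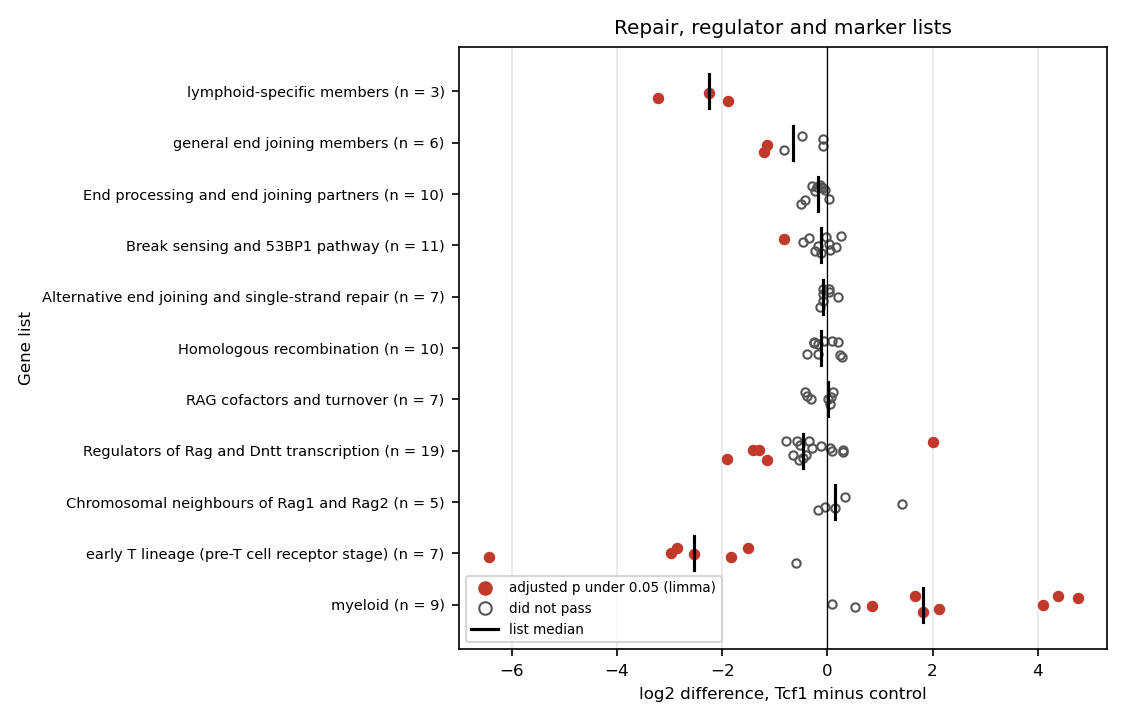
Log2 difference, Tcf1 minus control (horizontal axis), of every measured gene in each list (rows); filled points passed limma at an adjusted p under 0.05, open points did not, and vertical bars are list medians. The lymphoid-specific genes (median -2.26) and early T lineage markers (median -2.53) lie to the left, and the myeloid markers (median 1.82) lie to the right. The 4 repair lists have medians from -0.17 to -0.09.

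Markers of cell stage and of other lineages were also read. Of 7 early T lineage markers, 6 were lower in Tcf1 than in control cells and 0 higher, against 2.49% and 1.90% of all genes. The mean log2 signal of the 7 was 7.47 and 7.52 in the Tcf1 arrays, 10.17 in the control array and 6.84 in the LMPP array. Cd3e, a chain of the CD3 complex, read 7.45 and 7.42 in Tcf1 cells, 10.41 in control cells and 7.32 in LMPPs, a pattern close to that of Rag1. Other markers of this list did differ from LMPPs. There 3 of the 7 were higher in Tcf1 cells (Cd247 by 1.66, Lat by 1.28 and Cd3g by 0.94) and 0 lower, against 1.75% and 1.31% of all genes. Of 9 myeloid markers, 7 were higher in Tcf1 than in control cells and 0 lower, against 1.90% and 2.49% of all genes. Cells with Mac1 or Gr1 had been sorted out. Itgam, which encodes the gate marker Mac1, read 7.44 and 7.70 in Tcf1 cells and 7.03 in control cells and did not pass. The mean of the 9 was 9.18 and 9.37 in the Tcf1 arrays, 7.02 in the control array and 9.14 in the LMPP array. Against LMPPs 3 of the 9 were higher in Tcf1 cells (Adgre1 by 4.37, Lyz2 by 2.14 and Cybb by 1.45), and Ngp (-3.73) and Elane (-2.53) were lower. Lyz2, a lysozyme of macrophages and granulocytes, read 11.59 and 12.01 in Tcf1 cells and 7.71 in control cells. Of 6 stromal markers, Bgn and Fn1 were higher in Tcf1 cells than in control cells, while Col1a1, Col1a2, Col3a1 and Dcn did not pass. Over all genes 1.90% were higher. Bgn and Fn1 were also higher than in LMPPs (by 2.25 and 1.90 on the log2 scale), beside 1.75% of all genes. Of 8 B lineage markers, Cd79b was lower in Tcf1 cells (7.59 and 7.88, against 9.26 in control cells), beside 2.49% of all genes. Cd79b was also lower than in LMPPs, where it read 10.12 (a difference of -2.39, adjusted p = 0.0014, limma). Pax5, which defines committed B cells, read 6.33 and 6.29 in Tcf1 cells and 6.25 in control cells. Of 5 proliferation genes 0 passed in either comparison (limma). In such bulk samples, fewer cells with Rag1, Rag2 and Dntt RNA and less of that RNA per cell cannot be told apart. Whether the myeloid and stromal marker RNA lay in other cells or in the sorted cells themselves was not tested. Any part of other cells in the members' differences was not tested either.

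The genes whose profiles over the 4 arrays were nearest to the lymphoid-specific genes were found by Euclidean distance, each gene centred on its own mean, among genes above the median signal. For Rag1 they were Ptprf (distance 0.34), a receptor phosphatase, Prkcq (0.46), a kinase of T cell receptor signalling, Blk (0.48), a Src family kinase, Cd3e (0.49) and the Notch target Dtx1 (0.58). For Rag2 they were Cdh1 (0.18), E-cadherin, Gimap9 (0.18), a lymphocyte GTPase, Ehd3 (0.20), Xylt1 (0.22) and AA467197 (0.26). For Dntt they were the kinase gene Tnik (0.17), Lipg (0.18), an endothelial lipase, Col15a1 (0.20), a collagen, Nlrp6 (0.22) and the choline kinase gene Chka (0.25). Rag1 and Rag2 were 1.53 apart by this measure, Rag1 and Dntt 1.24 and Rag2 and Dntt 0.76. The nearest genes were picked as the closest of many, so their smaller distances were likely in advance. The measure also counts the size of a difference, which was 3.74 for Rag1 and 1.60 for Rag2 between control cells and LMPPs. With 4 arrays, many unrelated genes share such a profile, and no test was made.

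**Figure D4:**
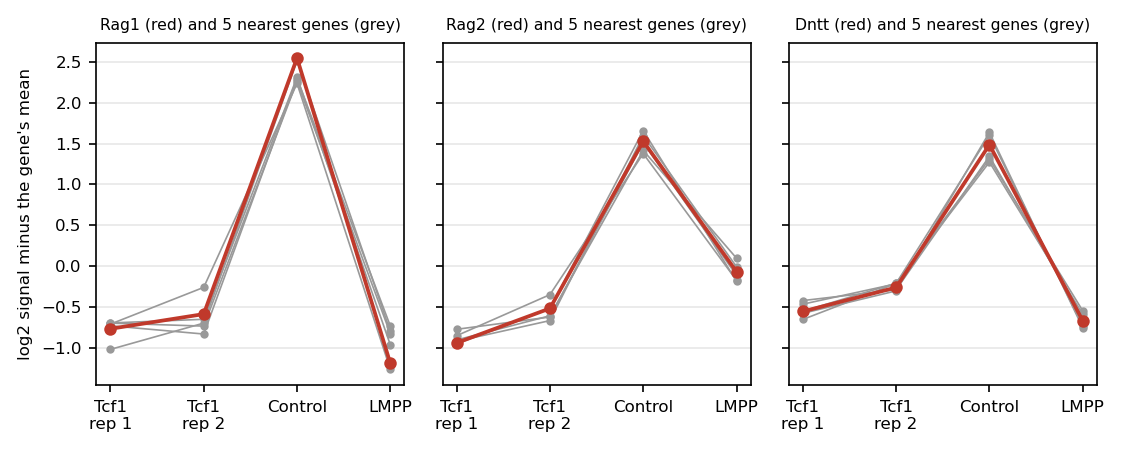
Log2 signal of Rag1, Rag2 and Dntt (red) and the 5 nearest genes of each (grey), centred on each gene's mean (vertical axis), on the 2 Tcf1 arrays, the control array and the LMPP array (horizontal axis; lines join the points of a gene). Every profile peaks on the control array, and the LMPP array lies below both Tcf1 arrays for Rag1 and Dntt and above both for Rag2.

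The Tcf1 replicates differed from each other by 0.05 (Prkdc) to 0.42 (Rag2) on the log2 scale. Replicate 2 was higher in 9 of 9 members, with a median difference of 0.29, and in 67.9% of all genes, with a median of 0.08. After median centring it was higher in 7 of 9 members, and after renewed quantile normalization in 6 of 9. In every called member the difference from control cells had the same sign in both replicates, from -3.31 and -3.13 for Rag1 to -1.23 and -1.07 for Xrcc6. A call requires a difference well beyond the spread of this pair, so the shared sign follows from the call.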

How the data were processed

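RNA from 4 samples was hybridised to Affymetrix whole-transcript arrays from 250 ng of total RNA, amplified with the Ambion WT Expression kit, per the labels' protocols. The authors deposited log2 signals per probe set; RMA and Partek 6.5 are named in the submitters' processing notes, without parameters, and the log base was taken from RMA and the range of values. The sources used name no genome build for the array.

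Of 35399 probe sets, 21789 had 1 gene symbol in the platform annotation, 1621 several and 11989 none. The probe set with the highest mean stood for each gene, giving 19938 genes. Groups were fitted with limma 3.58.1 (R 4.3.3) over all genes with empirical Bayes moderation; 1 residual degree of freedom and a prior of 5.78 gave 6.78. Intervals cover 95%. The fit was tested on simulated data. The simulation gave all arrays the same spread, so it could not test whether the control and LMPP arrays vary as the Tcf1 pair does. The number of arrays limits precision. Members, lists and tests were chosen with earlier results of these data known. All members are named, with up to 3 called genes per list with the largest differences and the 5 nearest profiles; other list genes were named after their values were seen. Alternatives were median centring, renewed quantile normalization, a filter at the 25th percentile, all probe sets, a mean-variance trend, robust moderation, the mean over probe sets and each replicate left out. Promoters come from RefSeq (3 of 3 genes matched); proteins were not used here.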

Additional observations from a re-analysis of the deposited data

How the results depend on the processing

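Of 9 members, 5 were called lower in Tcf1 than in control cells, and 5 or 6 under every alternative except the fit over all probe sets, which called 0. There the adjusted p ran from 0.127 (Rag1) to 0.262 (Lig4), with unchanged differences; the other settings gave these 5 genes adjusted p-values of at most 0.0191. Against LMPPs 0 members were called, and 1 (Rag2) after median centring. Of the values that did not pass, Prkdc turned to 0.0475 against control cells after renewed quantile normalization, and Xrcc6 and Prkdc to 0.0393 and 0.0844 against LMPPs. Between control cells and LMPPs 5 members were at least 2-fold apart under all 3 alternatives, but 2 of these hardly test the count. Each member has 1 probe set, so the mean over probe sets could not change its difference. Median centring shifts all genes by the same small amount (Rag1 from 3.739 to 3.743). With renewed quantile normalization Rag1 differed by 3.658 and Xrcc6, the smallest of the 5, by 1.067. Without either Tcf1 replicate no residual degree of freedom is left, so only differences are given: Rag1 ran from -3.31 to -3.13, Rag2 from -2.47 to -2.05, Dntt from -2.04 to -1.75, Lig4 from -1.37 to -1.04 and Xrcc6 from -1.23 to -1.07 against control cells. Over all genes, 874 were called against control cells, 1646 after median centring, 1437 with the filter and 0 over all probe sets; against LMPPs the counts were 610, 1456, 1196 and 0, and 936 with a trend. Fn1 lost its call after renewed quantile normalization (adjusted p = 0.0648 against control cells, 0.0674 against LMPPs). No paired analysis was possible because only the Tcf1 group has replicate numbers. Differences between the Tcf1 replicates had an SD of 0.24 over the probe sets of the genes and 0.57 over the 15461 other probe sets. The prior was 5.78 degrees of freedom in the main fit and 2.55 over all probe sets. The cause of the changes in calls between settings was not tested. With 1 array each for control cells and LMPPs, their own spread is unknown.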
